A study of Mus musculus with 22 samples.

Results

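The B cell and follicle genes were 9 members chosen by symbol among the 52526 distinct symbols of the deposited files: Cd79a, Cd79b, Ms4a1, Cr2, Fcer2a, Cxcr5, Cxcl13, Ighd and Ighm. All 9 were found, and all 9 were above the lowest deposited value in enough mice to be tested. RNA was measured in the left mammary tissue of 22 female C57BL/6J mice, 7 to 8 weeks old, each engrafted in the fourth fat pad with EO771 cells, a mammary cancer line of the same strain that carried firefly luciferase. For the 2 weeks before engraftment the cage held a wheel-hub on which mice could run, or only a hub (controls), and tissue was taken 24 hours after engraftment. Every mouse also received liposomes in the blood, filled with either PBS or clodronate. Clodronate in liposomes depletes phagocytes, chiefly macrophages, and is not directed at lymphocytes. With PBS liposomes there were 6 control and 6 running mice, and with clodronate liposomes 5 of each. The tissue was measured whole, so a difference in a gene cannot be told apart as fewer cells of a type or as less RNA in each cell.

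B cells recognise antigen through surface immunoglobulin, which carries the heavy chain of IgM or IgD in cells that have not switched class, and which signals through the CD79A and CD79B chains. In lymph nodes they gather in follicles, where stromal cells secrete the chemokine CXCL13 and B cells follow it with the receptor CXCR5. Complement receptor CR2 and the low-affinity IgE receptor FCER2A sit on mature follicular B cells, and follicular dendritic cells carry CR2 as well. The fourth mammary fat pad of the mouse normally surrounds the inguinal lymph node, and the sources used here do not state whether that node was removed.

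Libraries were made with QuantSeq, which primes at the poly(A) tail and gives about 1 read per transcript whatever its length. Whether different genes were captured and counted equally was not checked, so comparisons between genes below are of reads. The deposited values are read counts scaled to the library total (CPM), in which every value below 1 was raised to 1, the floor. Depth was 13256467 to 20484578 reads per mouse, at which the floor hid up to 13 to 20 reads of a gene, and 73.4% to 76.0% of genes sat there. No pair of mice had the same values, and the highest correlation between 2 mice was 0.972. Nothing in the labels marks separate batches.

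In the GENCODE M21 annotation of GRCm38, Cd79a lies on chromosome 7 from 24897381 to 24902197, Cd79b on chromosome 11 from 106311341 to 106314762, Ms4a1 on chromosome 19 from 11249675 to 11266241, Cr2 on chromosome 1 from 195136811 to 195176716 and Fcer2a on chromosome 8 from 3681737 to 3694175. Cxcr5 lies on chromosome 9 from 44511787 to 44561877 and Cxcl13 on chromosome 5 from 95956951 to 95961068. The constant-region genes Ighd and Ighm are neighbours on chromosome 12, from 113406604 to 113416324 and from 113418558 to 113422730. A primary transcript that starts at the rearranged variable region runs through both of them, and splicing or polyadenylation sets which constant region the messenger carries. The last 400 bases of Ms4a1 and of Cxcr5 overlap a gene on the opposite strand (4930526L06Rik and Bcl9l), and whether reads were counted by strand is not given in the sources used here. The gene 4930526L06Rik was at the floor in every mouse, and Bcl9l was at 115.1 to 219.0 CPM in all 22 mice while Cxcr5 was at the floor in 17 of them.

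RefSeq promoter sequences of GRCm38.p6 were at hand for 4 of the 9 members, and they are shown as a description. Whether they bear on the levels of the members was not tested. Each line ends just before the start that RefSeq or GENCODE annotates farthest upstream in that window, and the lines cover chr7:24897247-24897380 (plus strand), chr1:195176720-195176919 (minus strand), chr8:3694176-3694375 (minus strand) and chr5:95956739-95956938 (plus strand). Capitals mark CAAGGGA, letters found in motifs of the B cell factor EBF1, or the TATA box TATAAA.
Cd79a: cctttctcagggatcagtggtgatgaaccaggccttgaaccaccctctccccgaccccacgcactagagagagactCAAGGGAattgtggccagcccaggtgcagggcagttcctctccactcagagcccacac
Cr2: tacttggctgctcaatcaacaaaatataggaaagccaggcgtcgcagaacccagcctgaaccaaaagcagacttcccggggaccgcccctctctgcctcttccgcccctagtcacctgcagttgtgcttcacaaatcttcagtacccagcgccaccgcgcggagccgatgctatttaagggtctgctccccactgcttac
Fcer2a: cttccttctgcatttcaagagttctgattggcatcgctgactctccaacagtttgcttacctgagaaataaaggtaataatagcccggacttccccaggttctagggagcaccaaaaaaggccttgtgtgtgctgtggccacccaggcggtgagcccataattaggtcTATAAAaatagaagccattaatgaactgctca
Cxcl13: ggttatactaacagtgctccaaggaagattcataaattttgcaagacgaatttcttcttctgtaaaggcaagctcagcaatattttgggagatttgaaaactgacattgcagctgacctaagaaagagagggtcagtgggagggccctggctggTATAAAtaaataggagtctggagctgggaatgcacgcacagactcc
Both strands were searched over the 250 bases before each of 32851 RefSeq starts. CAAGGGA was found in 4.21% of all promoters and in that of Cd79a, and TATAAA in 12.4% of all promoters and in those of Fcer2a and Cxcl13. The octamer ATGCAAAT, a letter pattern of immunoglobulin promoters, was in 1.60% of all promoters, and the EBF core CCCNNGGG was in 11.8%. Neither of these was found in the windows of the 4 members, which says only that these letters are not there. Cd79b, Ms4a1, Cxcr5, Ighd and Ighm had no entry.

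The 22 mice split into 5 in which all 9 members were above the floor and 17 in which most members were not. The 5 were control mouse 2 with PBS liposomes, wheel-running mouse 3 with PBS liposomes, and wheel-running mice 3, 4 and 5 with clodronate liposomes. With PBS liposomes they were thus 1 of 6 control mice and 1 of 6 runners, and with clodronate liposomes 0 of 5 control mice and 3 of 5 runners. In the other 17 mice at most 3 members were above the floor, and the 8 members other than Ighm were at the floor in 124 of 136 values. Summed over the 9 members, the level was 388 CPM in the control mouse, 517 CPM in the wheel-running mouse with PBS liposomes, and 1135, 1200 and 747 CPM in the wheel-running mice with clodronate liposomes. The same sum was 20.8 to 114.8 CPM in the other 17. These 5 mice were picked on the members' own values, so what follows about them describes the libraries and tests nothing.

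**Figure D1:**
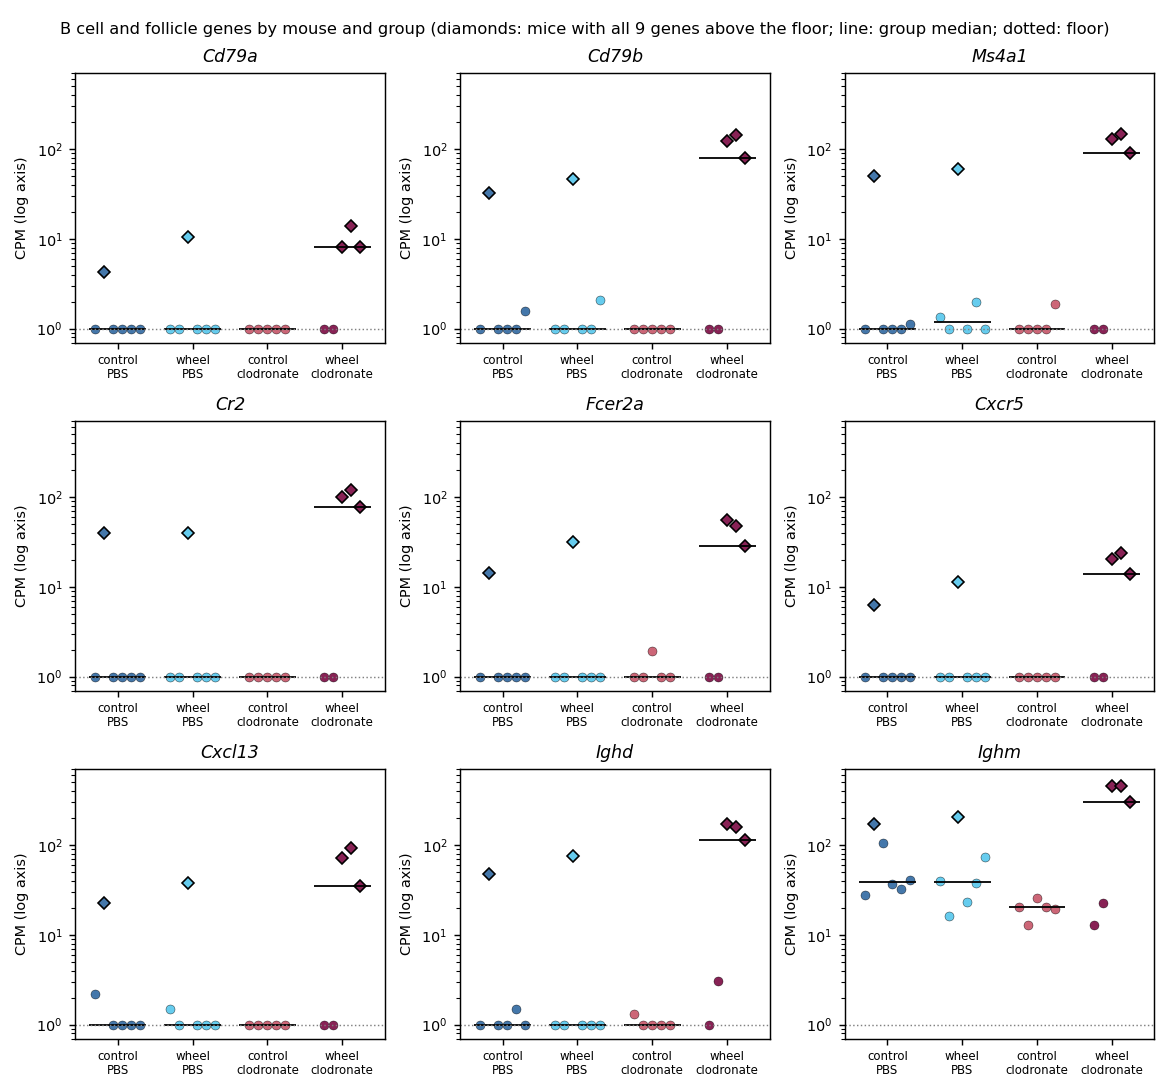
Level of each of the 9 genes in CPM (log axis) in every mouse, by group. Diamonds mark the 5 mice in which all 9 were above the floor (dotted line), and they lie above every circle in all 9 panels. Horizontal lines are group medians.

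The signalling chains of the B cell receptor were unequal in reads. Cd79b, which pairs with CD79A in the receptor, was at 32.3 CPM in control mouse 2 and 46.5 CPM in wheel-running mouse 3, both with PBS liposomes, and at 124.5, 143.5 and 79.7 CPM in wheel-running mice 3, 4 and 5 with clodronate liposomes. Cd79a was at 4.26, 10.4, 8.08, 14.1 and 8.15 CPM in the same mice in that order. The partner genes thus differed by 4.45 to 15.4 times in reads from the same tissue, and neither overlaps another annotated gene. Elsewhere Cd79a was at the floor in 17 of 17 mice, and Cd79b was above it in 2, at 2.10 CPM or less.

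Ms4a1, which encodes the B cell surface protein CD20, was at 49.7 CPM in the control mouse, 59.8 CPM in the wheel-running mouse with PBS liposomes, and 128.0, 145.9 and 90.6 CPM in the 3 wheel-running mice with clodronate liposomes. Of the other 17 mice, 4 were above the floor, none over 1.98 CPM. The lowest of the 5 mice was thus 25.1 times the highest of the rest.

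The receptors of mature follicular B cells showed the same split. Cr2, the complement receptor that lowers the threshold for B cell activation, was at 39.5, 40.3, 101.1, 120.0 and 78.0 CPM in the 5 mice, in the order above, and at the floor in all 17 others, so the lowest of the 5 was at least 39.5-fold higher. Fcer2a was at 14.4, 31.5, 55.1, 47.4 and 28.9 CPM, and only control mouse 3 with clodronate liposomes was above the floor among the rest, at 1.95 CPM. Cr2 exceeded Fcer2a in each of the 5 mice, by 1.28 to 2.74 times.

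The ligand and receptor that place B cells in follicles were also measured in those mice. Cxcl13, the chemokine made by follicular stroma rather than by B cells, was at 22.5 CPM in the control mouse, 37.9 CPM in the wheel-running mouse with PBS liposomes, and 70.9, 92.2 and 35.2 CPM in the wheel-running mice with clodronate liposomes. Its receptor Cxcr5 was at 6.21, 11.3, 20.6, 23.7 and 14.0 CPM and at the floor in the 17 others. In CPM the ligand gene exceeded the receptor gene by 2.52 to 3.89 times. Outside the 5 mice, Cxcl13 was above the floor in control mouse 1 (2.19 CPM) and wheel-running mouse 1 (1.51 CPM), both with PBS liposomes.

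Of the heavy chain genes, Ighd followed the other members and Ighm did so only in part. Ighd was at 47.0, 76.0, 170.5, 159.0 and 112.7 CPM in the 5 mice. Among the others it was above the floor in 3, at 1.498 CPM in control mouse 5 with PBS liposomes, 1.32 CPM in control mouse 1 with clodronate liposomes and 3.07 CPM in wheel-running mouse 2 with clodronate liposomes. Ighm was at 171.9, 202.9, 456.3, 454.5 and 299.4 CPM in the 5 mice, and it was the one member above the floor in all 17 others, from 12.8 to 106.8 CPM (median 25.8). Its lowest value in the 5 mice was only 1.61 times the highest in the rest, against 4.26 times or more for each other member.

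The share of Ighd in the reads of both heavy chains separated the mice. It was 21.5% (exact 95% binomial interval 20.2 to 22.9) in the control mouse, 27.3% (25.8 to 28.7) in the wheel-running mouse with PBS liposomes, and 27.2% (26.3 to 28.1), 25.9% (25.1 to 26.8) and 27.3% (26.3 to 28.3) in the 3 with clodronate liposomes. In the 3 other mice with Ighd above the floor it was 4.44% (2.92 to 6.44), 6.07% (4.04 to 8.71) and 11.9% (8.91 to 15.5), in the order given for Ighd. The ratio of Ighm to Ighd was 2.66 to 3.65 in the 5 mice and at least 7.40 in each of the 17 others, in 14 of which the floor of Ighd makes it a lower bound. These intervals cover counting error only, and PCR copies are not independent molecules.

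**Figure D2:**
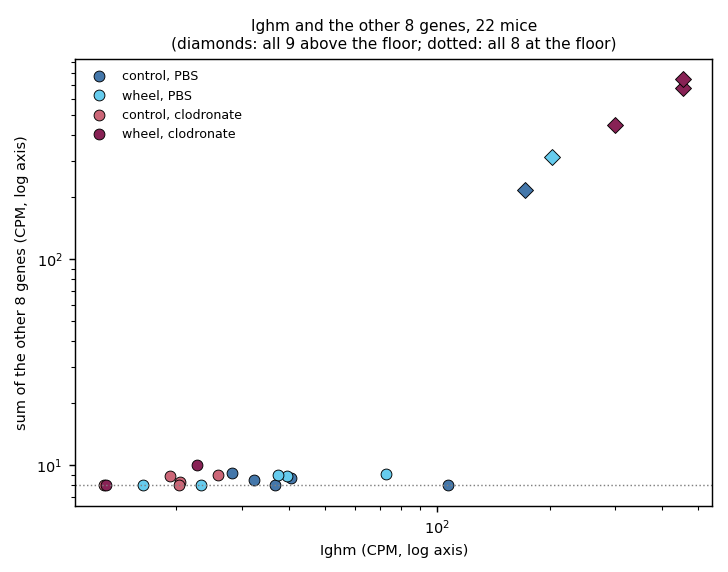
Ighm (x axis) against the sum of the other 8 genes (y axis), both in CPM on log axes, in 22 mice. Along the bottom, Ighm varies from 12.8 to 106.8 CPM in 17 mice while the other 8 stay at or near their joint floor (dotted line), and the 5 diamonds stand apart at the upper right.

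Within the 5 mice the make-up of the 9 members was alike although their sum varied. Ighm took 37.9% to 44.3% of the members' reads, Ighd 12.1% to 15.1%, Ms4a1 11.3% to 12.8%, Cd79b 8.33% to 12.0% and Cr2 7.79% to 10.5%. Smaller shares went to Cxcl13 (4.71% to 7.68%), Fcer2a (3.72% to 6.11%), Cxcr5 (1.60% to 2.20%) and Cd79a (0.712% to 2.02%). Relative to Ms4a1, the highest mouse was 1.14 times the lowest for Ighm, 1.28 times for Cr2, 1.41 times for Ighd, 1.51 times for Cd79b, 1.52 times for Cxcr5, 1.63 times for Cxcl13, 1.82 times for Fcer2a and 2.77 times for Cd79a. Cd79a was the least even member, with 70 to 232 reads behind its values.

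**Figure D3:**
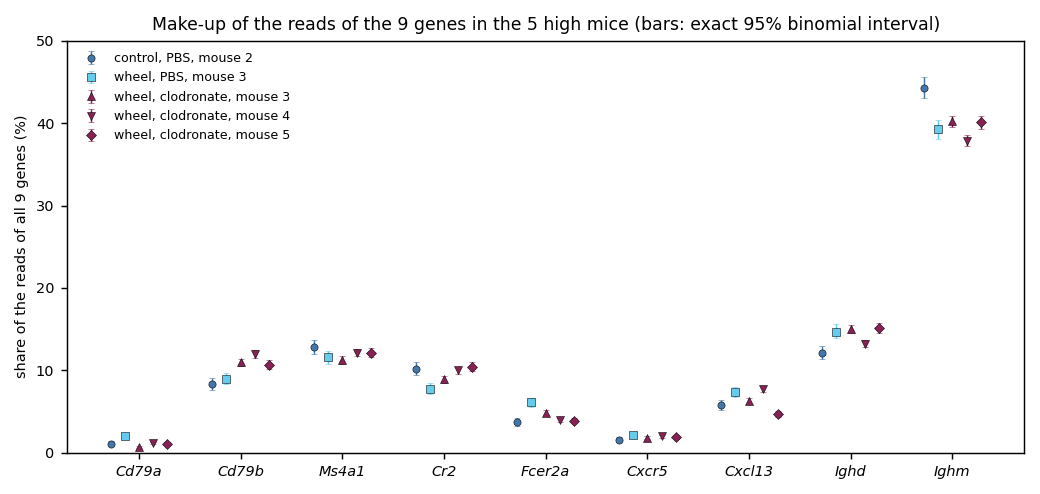
Share of the reads of the 9 genes that each gene took (y axis, %), in the 5 mice in which all were above the floor, with exact 95% binomial intervals for counting error. The symbols of a gene cluster together, from about 1% for Cd79a to 37.9% to 44.3% for Ighm.

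Running was compared with the hub alone first in mice with PBS liposomes, by limma on log2(CPM + 1) over 15138 genes with Benjamini-Hochberg adjustment. None of the 9 members passed an adjusted P of 0.05, against 0% of all genes, and none had an unadjusted P under 0.05, against 744 genes. The differences ran from -0.25 for Ighm (SE 0.75) to 0.19 for Cd79a (SE 0.47). The intervals were wide, from -2.08 to 2.41 for Ms4a1, and each group held 1 of the high mice. The median difference was 0.13 for the members and -0.085 for all genes. Without wheel-running mouse 3 every member was lower in runners, down to -0.82 for Ighd, and without control mouse 2 every member was higher, up to 0.94 for Ms4a1, so the direction changed with the mouse left out. Over all 9 members and 12 mice it turned in 28 of 108 fits, which include fits without a low control mouse for Cd79b, Cr2, Cxcl13 and Ighd.

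In mice with clodronate liposomes all 9 members had higher means in runners. Ighd differed most, by 3.88 on the log2 scale (SE 1.19, 95% interval 1.42 to 6.34), with values of 1.00, 3.07, 170.5, 159.0 and 112.7 CPM in the 5 runners and 1.32, 1.00, 1.00, 1.00 and 1.00 CPM in the 5 control mice. Runners 1 and 2 were near the control mice, runner 2 being just above them, and runners 3, 4 and 5 were far above. The other members differed by 1.46 (Cd79a, SE 0.51) to 3.50 (Cd79b, SE 1.13), with Ighm at 2.51 (SE 0.82). The median was 2.98 for the members and 0.0045 for all genes. All 9 had an unadjusted P under 0.05 (0.00344 to 0.00927 by limma), which 7.04% of all genes had in the same direction, but the adjusted P was 0.257 to 0.281, so none passed, and 0.00661% of all genes did. The exact two-sided permutation P of the 9 members ran from 0.0476 to 0.167, with Ighd alone under 0.05. Without wheel-running mouse 1, Ighd and Ighm passed (adjusted P = 0.0469 for both, limma). Without wheel-running mouse 2, Cd79b, Cr2 and Cxcr5 passed (0.0455, 0.0492 and 0.0450). Cd79a, Cr2 and Cxcr5 were above the floor in no mouse but the high 5. The other members except Ighm were above it in at most 4 of the 17 other mice. All members but Ighm thus met the filter of 5 mice only through the high 5. Their values here rest on mice that admitted them to the test. Without the 3 high mice of this group and the 2 elsewhere, the differences were between -0.16 (Ighm) and 0.47 (Ighd), with 2 runners left.

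Clodronate was compared with PBS liposomes in control mice to see whether the members moved with phagocyte depletion alone. None passed the adjusted threshold, against 0% of all genes, and none had an unadjusted P under 0.05 by limma, against 1058 genes. For the 8 members other than Ighm the difference was -0.23 to -0.78, and without control mouse 2 it was between -0.13 and 0.11. Ighm was different in that all its values with clodronate liposomes were low. It was at 28.1, 171.9, 106.8, 36.8, 32.2 and 40.5 CPM in control mice with PBS liposomes and at 20.4, 12.8, 25.8, 20.3 and 19.2 CPM in control mice with clodronate liposomes, and the groups did not overlap. The difference was -1.45 (SE 0.78, adjusted P = 0.738 by limma), and the exact permutation P was 0.00433, the smallest that 6 mice against 5 can give. It was the only one of 36 exact tests of the members with groups that did not overlap, and 0.575% of all genes were likewise lower with no overlap. Without control mouse 2, a mouse left out for its own high values and so with no test given, the difference was -1.12. The summed macrophage markers, 78.6 to 244.7 CPM with PBS and 97.6 to 151.2 CPM with clodronate liposomes, overlapped, and so did Igkc, the kappa light chain, at 5.29 to 438.7 and 3.54 to 33.7 CPM.

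In wheel-running mice the members were higher with clodronate than with PBS liposomes, by 1.04 (Cd79a, SE 0.49) to 3.04 (Ighd, SE 1.14), and 1.32 for Ighm (SE 0.78). Of the 9 members, 8 had an unadjusted P under 0.05 by limma, all but Ighm, against 6.08% of all genes in that direction. That count was 1 when the 2 groups were fitted alone, 0 without wheel-running mouse 3 or 4 with clodronate liposomes and 1 without mouse 5. It was 4 without wheel-running mouse 2, 4, 5 or 6 with PBS liposomes and 5 without mouse 1. It was 9 without wheel-running mouse 3 with PBS liposomes, or without wheel-running mouse 1 or 2 with clodronate liposomes. All 8 met the filter of 5 mice only through the high 5. Their values here thus rest on mice that admitted them to the test. None of the 9 members passed after adjustment (0.299 to 0.549 by limma), against 0.00661% of all genes, and the exact permutation P was 0.0563 to 0.303. In the 17 mice outside the high 5, Ighm was at 12.9 and 22.7 CPM in the 2 runners with clodronate and at 16.3 to 73.1 CPM in the 5 runners with PBS liposomes, so its direction turned there to -0.92. Over those 17 mice Ighm was 12.8 to 25.8 CPM in 7 mice with clodronate liposomes and 16.3 to 106.8 CPM in 10 with PBS liposomes, given without a test since mice were left out by the members' own values.

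The effect of running was then compared between liposomes as an interaction. It was 1.27 (Cd79a, SE 0.70) to 3.82 (Ighd, SE 1.61), and 2.77 for Ighm (SE 1.11). An unadjusted P under 0.05 was reached by 6 of the 9 members, against 6.35% of all genes in the same direction. That count was 3 with robust eBayes, 0 without wheel-running mouse 3 or 4 with clodronate liposomes and 1 without mouse 5. It was 1 without control mouse 2, 2 without wheel-running mouse 1, 2, 4 or 5 and 3 without wheel-running mouse 6, all with PBS liposomes. It was 4 without any 1 control mouse with clodronate liposomes. It was 9 without wheel-running mouse 3 with PBS liposomes, or without wheel-running mouse 1 or 2 with clodronate liposomes. Cd79b, Cr2, Cxcr5, Cxcl13 and Ighd, counted among the 6, met the filter of 5 mice only through the high mice. Their values thus rest on mice that admitted them. The adjusted P of the 9 members was 0.62 to 0.69 by limma, so the difference in the effect of running was not established for any member, and 0% of all genes passed. These comparisons share groups, and their values are therefore not independent.

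**Figure D4:**
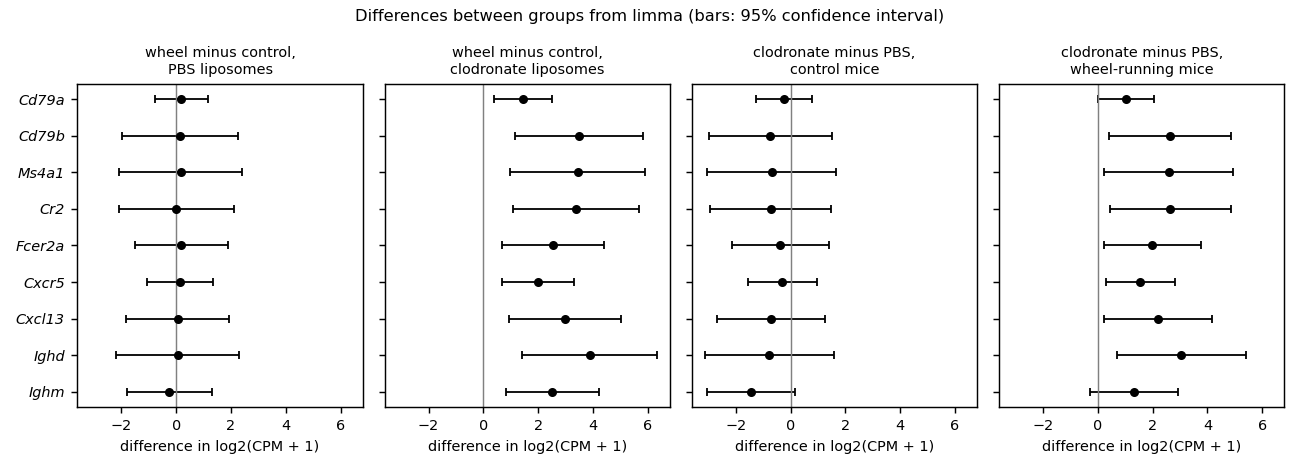
Difference of each gene between groups on the log2(CPM + 1) scale (x axis) with its 95% confidence interval from limma, in 4 comparisons. With PBS liposomes the points lie near 0, and with clodronate liposomes all 9 lie above it, from 1.46 to 3.88, with intervals of 2 to 5 log2 units.

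Genes outside the list were ranked by the root-mean-square difference of their centred log2(CPM + 1) profile from the members' mean over 22 mice. Among the nearest were Tnfrsf13c (0.14), the receptor for the B cell survival factor BAFF, Iglc3 (0.20), a lambda light chain constant region, Btla (0.20), an inhibitory receptor of lymphocytes, and Fcrla (0.22). Tnfrsf13c was at 20.3 to 53.2 CPM in the 5 mice and at most 1.24 CPM in the rest. Among members, which themselves make up that mean, the likeness was closest for Fcer2a (0.20) and Cxcl13 (0.21) and least for Ighm (0.71) and Cd79a (0.87). This measure takes in the size of a difference as well as its pattern. Cd79a was low, at 4.26 to 14.1 CPM in the 5 mice, but was at the floor in all 17 others.

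Lists of related genes were then set beside the members in the 5 mice and the other 17, for which 2.59% of all genes had no overlap. Of 18 genes of the B cell receptor, its coreceptors and signalling, 13 had no overlap, with sums of 651 to 1622 CPM against 261 to 479. Cd74, the class II invariant chain, was at 238.8 to 731.4 CPM against 66.6 to 188.4, whereas the widely expressed Cd81 was at 125.5 to 173.3 CPM against 108.8 to 230.2. Of 9 B cell transcription factors 7 had no overlap. Pou2f2 was at 41.5 to 165.0 CPM against 1.66 to 17.8, and Ebf1, which preadipocytes also express, was at 168.8 to 225.3 CPM against 104.7 to 281.2. Of 10 lymphoid organisers 3 had no overlap, while Ltbr was at 23.1 to 37.6 CPM against 34.6 to 75.3. Ccl19 and Ccl21a, which direct T cells, were at the floor in all 22 mice. Reads that mapped to several places, 16.6% to 19.9% of reads per mouse, were counted to no gene. Whether they held reads of these 2 genes was not tested, so the floor does not show that the genes were silent.

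Markers of other cells of lymph nodes moved with the members in the same 5 mice, and their part in the differences was not tested. Of 12 T cell genes 11 had no overlap, with sums of 250 to 554 CPM against 13.9 to 52.8, including Trbc2 (77.7 to 206.2 CPM against 2.16 to 28.1) and Trac (31.3 to 65.7 CPM against at most 3.89). The 8 members without Ighm summed to 0.864 times the T cell list in the control mouse, 1.20 times in the wheel-running mouse with PBS liposomes and 1.23, 1.40 and 1.33 times in those with clodronate liposomes. Of 10 genes of follicular dendritic cells and node stroma, Glycam1 and Clu had no overlap, the sums being 1159 to 2189 CPM against 436 to 1284. Glycam1, a mucin-like protein of high endothelial venules that the mammary epithelium also makes, was at 436.3 to 984.9 CPM against at most 4.78, and Mfge8 was at 278.7 to 562.7 CPM against 143.8 to 731.3. Of 13 genes of germinal centres and plasma cells only Mzb1 and Igkc had no overlap. Igkc was at 341.4 to 1043 CPM against 1.33 to 66.8, and Xbp1 was at 62.0 to 88.1 CPM against 63.3 to 135.0.

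**Figure D5:**
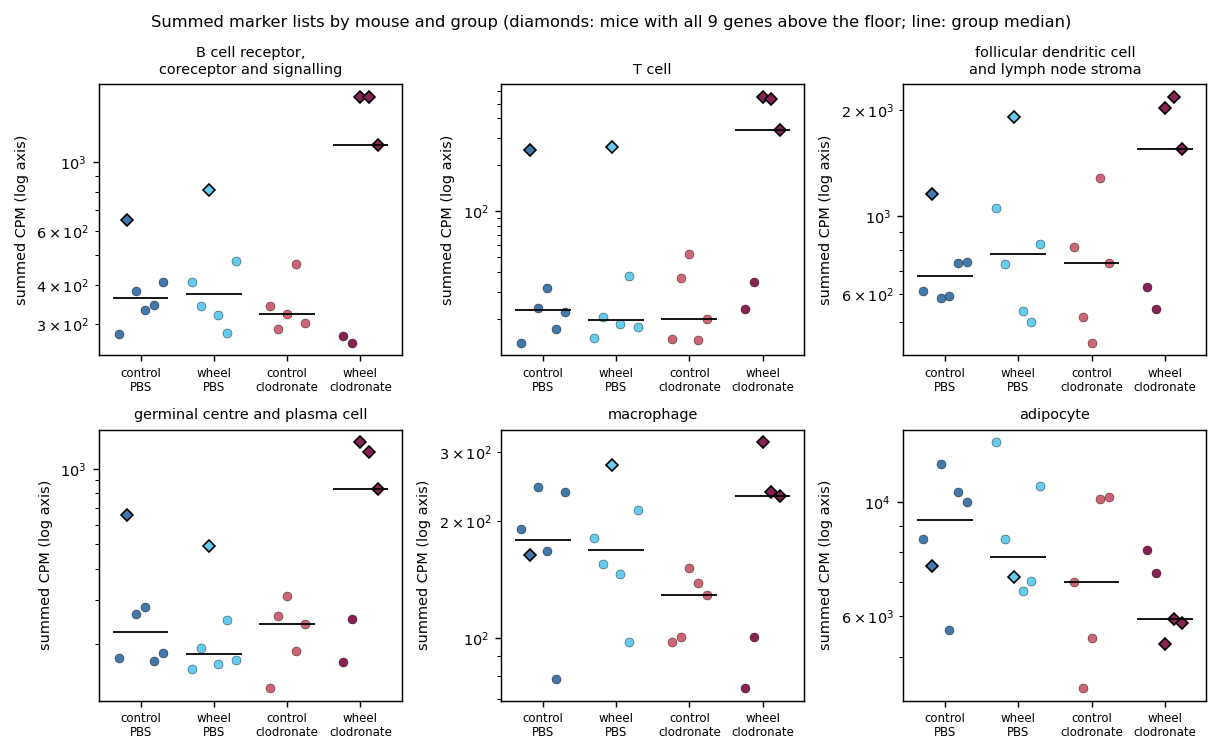
Summed CPM (log axis) of 6 marker lists in every mouse, by group. The 5 diamonds lie above all circles in the B cell, T cell and germinal centre and plasma cell panels, overlap them for stroma and macrophages, and lie at 5314 to 7509 CPM within the 4352 to 13087 CPM of the other mice for adipocyte genes.

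Lists of adipocytes, epithelium and muscle did not have higher sums in the 5 mice, and macrophage genes did in part. Adipocyte genes summed to 5314 to 7509 CPM in the 5 mice against 4352 to 13087, with Fabp4 at 3288 to 5239 against 2576 to 8453 CPM and Adipoq at 1052 to 1299 against 865 to 2656 CPM. Epithelial genes summed to 177 to 742 against 263 to 3513 CPM (Krt14 26.4 to 314.0 against 28.9 to 1946 CPM, Krt5 22.1 to 273.5 against 23.2 to 1468 CPM). Skeletal muscle genes summed to 17.8 to 633 against 16.6 to 17879 CPM, with Acta1 at 7.35 to 224.4 against 5.46 to 6082 CPM and Myh4 at 3.28 to 183.5 against 3.23 to 5284 CPM. No gene of these 3 lists was without overlap. Macrophage genes summed to 164 to 318 against 74.5 to 244.7 CPM. With clodronate liposomes the 3 high runners were at 231.2 to 317.9 CPM and the 7 other mice at 74.5 to 151.2 CPM, and with PBS liposomes wheel-running mouse 3 was the highest of its group (278.2 CPM against 97.9 to 212.7), while control mouse 2 (163.8 CPM) was within the 78.6 to 244.7 CPM of its group. The part of these cells in the members' differences was not tested. Marco and Timd4 were the 2 of 9 without overlap, while Csf1r was at 37.2 to 66.02 against 20.7 to 65.97 CPM and Mrc1 at 27.6 to 36.6 against 18.9 to 76.4 CPM.

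The same lists were counted in the comparison of runners with control mice under clodronate liposomes. No gene of any list passed the adjusted threshold by limma. An unadjusted P under 0.05 with a higher mean in runners, which 7.04% of all genes had, was found for 15 of 17 tested genes of B cell receptor and signalling (median difference 2.11), 8 of 9 B cell transcription factors (2.12), 12 of 12 T cell genes (2.09), 4 of 7 lymphoid organisers (0.88), 3 of 8 stromal genes (0.45), 4 of 12 germinal centre and plasma cell genes (0.33) and 1 of 9 macrophage genes (0.30). None of the adipocyte, epithelial or muscle genes did so (medians -0.24, -0.23 and -1.24). In the lower direction, 1 lymphoid organiser and 1 adipocyte gene had an unadjusted P under 0.05. Some of the genes tested, such as Fcrla and Mzb1, were above the floor only in the high 5 mice, and others in 1 to 4 mice more. Such genes met the filter through the high mice, 3 of which are runners here, so these counts are a description.

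Immunoglobulin genes outside the list were also read in the 17 mice outside the high 5, as a description. The mouse with the highest Ighm of these, control mouse 3 with PBS liposomes (106.8 CPM), had Igkc at 66.8 CPM and Jchain, the joining chain of secreted IgM and IgA, at 5.70 CPM. The next, wheel-running mouse 6 with PBS liposomes (73.1 CPM), had Igkc at 29.8 CPM and Jchain at the floor.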

How the data were processed

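Total RNA of mammary tissue from 22 mice was sequenced as QuantSeq 3′ libraries. Per the submitters' processing notes the reads were mapped with STAR 2.5.3a to GRCm38; counting settings were not given in the sources used here. The authors deposited 1 signal per gene and mouse, a CPM value raised to 1 where it was lower. The total behind it includes unmapped and multimapping reads, as 4 rows that name no gene show; those rows held 35.4% to 42.6% of reads and were left out. Values above the floor were whole reads in 100% of cases (tolerance 0.1 read), which gave the depth. Of the rows of each of 106 repeated symbols, that of highest mean was kept.

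Groups and replicate numbers came from the labels. The 15138 genes with 5 or more mice above the floor entered limma 3.58.1 (R 4.3.3) on log2(CPM + 1), with 4 group means, eBayes with a variance trend and Benjamini-Hochberg adjustment at 0.05. This scale understates changes of low genes. The limma step was also run on simulated data with the same spread for every gene. Most members were far above the floor in a few mice only, unlike that setting, so that run does not speak for them. Single members were also compared by exact two-sided permutation (scipy 1.17.1, Python 3.11.15). The labels number mice 1 to 6 in each group, but nothing ties mice of the same number together: correlations of their deviations averaged -0.075 to 0.18 over the 4 comparisons, and not every pair was over 0.1. The labels name separate mice as replicates. The members and the marker lists were chosen with earlier results of these data known. Genes named were all members, the 5 most alike genes and the 2 most abundant of each list, some of which are not reported here. Other genes of the lists (Marco, Timd4, Clu, Mzb1, Ccl19, Ccl21a, Jchain) were named after their values were seen. Alternatives were other pseudocounts (0.1, 5 and none), filters (none, mean of at least 5 CPM), upper-quartile scaling, no trend, robust eBayes, fits of the compared groups alone, the replicate number as a block, leaving out each mouse, and leaving out the high mice by 2 rules. Comparisons by the authors were not used.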

Additional observations from a re-analysis of the deposited data

Results flagged for a closer look

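Within a group, the highest mouse stood apart from the rest by Dixon's criterion at 95% (on the log2 scale) in 19 of 31 tests of a member in a group, where chance alone flags about 1 in 20. The genes were chosen with attention to the few high mice, and 16 of the 19 are the same 2 mice counted over 8 genes that moved together, so the number is a description. In 12 of the 19 the rest of the group sat at the floor, where any value above it is set apart.

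Control mouse 2 with PBS liposomes was apart for Cd79a (4.26 CPM), Cd79b (32.3 CPM), Ms4a1 (49.7 CPM), Cr2 (39.5 CPM), Fcer2a (14.4 CPM), Cxcr5 (6.21 CPM), Cxcl13 (22.5 CPM) and Ighd (47.0 CPM). Wheel-running mouse 3 with PBS liposomes was apart for the same 8 genes: Cd79a (10.4 CPM), Cd79b (46.5 CPM), Ms4a1 (59.8 CPM), Cr2 (40.3 CPM), Fcer2a (31.5 CPM), Cxcr5 (11.3 CPM), Cxcl13 (37.9 CPM) and Ighd (76.0 CPM). Ighm passed the criterion in neither mouse. In control mice with clodronate liposomes, single values just above the floor were apart: Ms4a1 at 1.89 CPM in mouse 5, Fcer2a at 1.95 CPM in mouse 3 and Ighd at 1.32 CPM in mouse 1.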

How the results depend on the processing

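In every comparison 0 of the 9 members passed the adjusted threshold, and this count was the same under every alternative run except without wheel-running mouse 1 (2 members) or 2 (3 members) in the comparison of activity with clodronate liposomes, a range of 0 to 3 when 1 mouse was left out. Pairing mice by number is not given by the design; with the replicate block 0 members and 0 genes passed in any comparison, and it changed no call of a member. It left 5 rather than 8 members with an unadjusted P under 0.05 for liposomes in runners, a count that ran from 0 to 9 when 1 mouse was left out. By the exact permutation test, unadjusted, Ighd (activity with clodronate liposomes, P = 0.0476) and Ighm (liposomes in control mice, P = 0.00433) were under 0.05. Over all genes, the number that passed for activity with clodronate liposomes was 1, but 3 without the filter, 5 and 12 without the 4 mice over 10 times the median sum and without all 5 high mice, 118 and 236 without runner 1 and 2, and 0 with the mean filter, robust eBayes or the 2 groups alone; for liposomes in runners it was 1, but 0 to 14 under other settings and 28 and 51 without runner 1 and 2; for liposomes in control mice 0, but 38 without control mouse 1 with clodronate liposomes; for the interaction 0, or 2 without the filter. Upper-quartile scaling moved the median of all genes in the interaction from 0.091 to -0.0092 and genes with an unadjusted P under 0.05 from 961 higher of 1147 to 648 of 1040; a member's value in a mouse moved by -10.1% to 13.6%. The mean filter left 7 members, without Cd79a and Cxcr5. Without a filter, 3 rather than 6 members had an unadjusted P under 0.05 in the interaction (0 to 9 when 1 mouse was left out).

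Directions of differences that were not called depended on the high mice. For activity with PBS liposomes, leaving out the 4 mice over 10 times the median sum, which removes the high runner and keeps the high control mouse, gave -0.23 for Cd79a, -0.61 for Cd79b, -0.63 for Ms4a1, -0.72 for Cr2, -0.49 for Fcer2a, -0.31 for Cxcr5, -0.64 for Cxcl13 and -0.82 for Ighd; without all 5 high mice Cxcl13 was -0.069 and Ighd -0.064, Ighm was -0.35, Ms4a1 0.15 and Cd79b 0.055, and the other 4 members were at 0. Leaving out 1 mouse, the ranges were -0.23 to 0.42 for Cd79a, -0.61 to 0.80 for Cd79b, -0.63 to 0.94 for Ms4a1, -0.72 to 0.73 for Cr2, -0.49 to 0.67 for Fcer2a, -0.31 to 0.44 for Cxcr5, -0.64 to 0.63 for Cxcl13, -0.82 to 0.81 for Ighd and -0.68 to 0.077 for Ighm. For activity with clodronate liposomes, either omission gave -0.11 for Ms4a1 and Fcer2a and -0.16 for Ighm. For liposomes in control mice, the 5-mouse omission gave 0.090 for Ms4a1 and 0.11 for Fcer2a, with ranges of -0.84 to 0.090 and -0.49 to 0.11 when 1 mouse was left out. For liposomes in runners, either omission gave -0.13 for Cd79b, -0.16 for Ms4a1, -0.065 for Cxcl13 and -0.92 for Ighm. For the interaction, the 5-mouse omission gave -0.055 for Cd79b, -0.25 for Ms4a1 and -0.11 for Fcer2a. The 5-mouse omissions were chosen after seeing the data. Depth limits the 8 low members: at the floor, up to 13 to 20 reads per gene are hidden.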
